A study of Mus musculus with 6 samples.

Results

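The genes described here make, package, carry and break down γ-aminobutyric acid (GABA). They are Gad1, Gad2, Slc32a1, Slc6a11, Slc6a12, Slc6a13 and Abat, taken by name from the 32371 genes of the count table, and all 7 were found. The libraries were made from retinal cells of C57BL/6J mice, which the study's methods give as adults of 6 to 10 weeks and of both sexes. In the GFP group, 3 libraries came from eyes injected into the vitreous with an adeno-associated virus, AAV2-GFP. In the Ezh2-Y726D group, 3 libraries came from eyes injected in the same way with AAV2-Ezh2-Y726D. Ezh2 is the histone methyltransferase of the polycomb repressive complex that methylates lysine 27 of histone H3, and Ezh2-Y726D is its catalytically dead form. Both groups had the optic nerve crushed 2 weeks after the injection and were sampled 3 days after the crush, so no uninjured eye enters the comparison. Cells were sorted with an antibody to CD90.2, the product of Thy1, to enrich retinal ganglion cells (RGCs). AAV2 in the vitreous can enter other retinal cells as well as RGCs, and the sources used here do not say how many mice went into each library. The comparison asks how these GABA genes differ when catalytically dead Ezh2 is overexpressed after axon injury.

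GABA is the main inhibitory transmitter of the retina, where many amacrine cells and horizontal cells release it. Neurons make it from glutamate with the glutamic acid decarboxylases Gad67 (Gad1) and Gad65 (Gad2), and the vesicular transporter Vgat (Slc32a1) loads it into synaptic vesicles. After release it is taken up through sodium-coupled transporters of the Slc6 family. Of these, Gat3 (Slc6a11) is found in glia and some neurons of the central nervous system, whereas Bgt1 (Slc6a12), which also carries betaine, and Gat2 (Slc6a13), which also carries taurine, are best known from kidney, liver and the meninges and vessels that border the brain. GABA transaminase (Abat) breaks GABA down in the mitochondria of both neurons and glia.

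The plasma membrane transporters include neighboring genes that moved in opposite directions. On GRCm38 with GENCODE vM21, Slc6a13 (ENSMUSG00000030108) lies at chr6:121300227-121337733 and Slc6a12 (ENSMUSG00000030109) at chr6:121343076-121365775, both on the plus strand with a gap of 5342 bases between them. Slc6a11 (ENSMUSG00000030307) lies apart at chr6:114131241-114249952. Their promoters are printed because these genes sit side by side or in the same family and moved differently, and that of Gad1 because it rose together with Gad2 and Slc32a1. The windows are from RefSeq promoters on GRCm38.p6, end at or before an annotated start, hold no exonic base of GENCODE, run 5′ to 3′ on the plus strand, and carry each CpG dinucleotide in capitals. The windows are chr6:121300038-121300226 for Slc6a13, chr6:121342826-121343075 for Slc6a12, chr6:114130991-114131240 for Slc6a11 and chr2:70561879-70562041 for Gad1.
Slc6a13: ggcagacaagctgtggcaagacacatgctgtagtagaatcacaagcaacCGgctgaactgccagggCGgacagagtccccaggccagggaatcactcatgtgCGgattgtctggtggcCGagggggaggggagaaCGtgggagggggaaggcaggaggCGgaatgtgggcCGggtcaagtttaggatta
Slc6a12: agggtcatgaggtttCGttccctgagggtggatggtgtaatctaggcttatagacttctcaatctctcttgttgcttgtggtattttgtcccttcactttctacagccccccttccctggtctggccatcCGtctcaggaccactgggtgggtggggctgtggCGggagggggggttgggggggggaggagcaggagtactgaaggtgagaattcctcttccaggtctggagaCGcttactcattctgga
Slc6a11: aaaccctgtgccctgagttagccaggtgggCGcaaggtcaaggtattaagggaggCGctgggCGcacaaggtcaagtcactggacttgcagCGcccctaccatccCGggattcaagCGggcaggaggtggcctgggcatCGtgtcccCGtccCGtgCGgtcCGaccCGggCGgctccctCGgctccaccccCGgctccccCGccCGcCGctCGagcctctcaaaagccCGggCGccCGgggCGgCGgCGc
Gad1: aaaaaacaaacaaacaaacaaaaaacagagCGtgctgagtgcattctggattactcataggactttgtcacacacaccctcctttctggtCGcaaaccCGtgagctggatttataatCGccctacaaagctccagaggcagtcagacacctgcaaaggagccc

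In the full 250 bases before the start, Slc6a11 had 25 CpGs, and 10.7% of the 32841 RefSeq promoters had as many or more. Gad1 had 17 CpGs, Gad2 13 and Slc32a1 12, whereas Slc6a13 had 9 and Slc6a12 had 4 at the starts shown. All promoters together had a median of 6. Slc6a13 and Slc6a12 have further annotated RefSeq starts, and these had 2 to 6 and 2 to 5 CpGs. A promoter was found for 6 of the 7 genes, the exception being Abat. The motif GCCNNNGGC of AP-2 factors, which reads the same on both strands, was present at 2 places upstream of Gad2, at 1 upstream of Slc6a11 and at 1 upstream of another start of Slc6a12, and 13.7% of all promoters held it. TAATTA, also the same on both strands, was in none of these windows and in 4.84% of all promoters. These are letter matches only, and no binding or chromatin was measured here.

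Total counts per library ran from 9333244 to 23782520, and from 4460732 to 22024582 without 1 rRNA gene, CT010467.1. CT010467.1 held 6.59%, 50.9% and 52.2% of all counts of GFP replicates 1 to 3 and 2.55%, 16.1% and 7.39% in Ezh2-Y726D replicates 1 to 3, so GFP replicates 2 and 3 were the shallowest for all other genes. Levels are given as CPM, a count scaled to a common library size with TMM factors. Ezh2 itself gave 22.7, 23.9 and 26.4 CPM with GFP and 65.2, 65.6 and 65.2 CPM with Ezh2-Y726D, where reads of the vector and of the endogenous gene cannot be told apart. All 12 RGC markers listed passed the filter on low counts, and so did all 11 amacrine, all 9 Müller glia and all 6 rod markers, so the libraries held RNA of many retinal cell types. In such bulk libraries, fewer cells of a type and less RNA per cell cannot be told apart.

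With Ezh2-Y726D, 6 of the 7 genes were higher and 1, Slc6a13, was lower at an adjusted P under 0.05 in edgeR's quasi-likelihood test, where 13.9% of the 18138 genes tested were higher and 13.6% lower. At the study's thresholds for a differentially expressed gene (DEG), which also ask for a fold change over 1.5, Gad1, Gad2, Slc32a1 and Slc6a12 were higher and Slc6a13 lower, where 2.52% of all genes tested were DEGs higher, 5.5% lower and 8.02% either. Without GFP replicate 1, 3 of these 5 remained DEGs, as Gad2 was under the fold change (log2 fold change 0.53) and Slc6a12 lost its call. With scaling by library totals, which include the rRNA gene, edgeR called 0 of the 7 genes higher or lower and 65 genes in all. The groups did not overlap for any of the 7, as for 38.6% of all genes tested, 19.7% with the higher and 18.9% with the lower level in Ezh2-Y726D. The median log2 fold change of the 7 was 0.61, beside 0.0019 over all genes tested. Among the genes tested, 97.4% had a lower log2 fold change than Gad1 and 1.07% a lower one than Slc6a13. Without GFP replicates 2 and 3, the libraries with most rRNA, the log2 fold changes of Gad1, Gad2 and Slc32a1 were 0.63, 0.70 and 0.65. Those of Slc6a12, Slc6a13, Abat and Slc6a11 were 0.95, -1.11, 0.29 and 0.08. Only effect sizes are given, as the lone GFP library left cannot show the spread within its group.

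**Figure D1:**
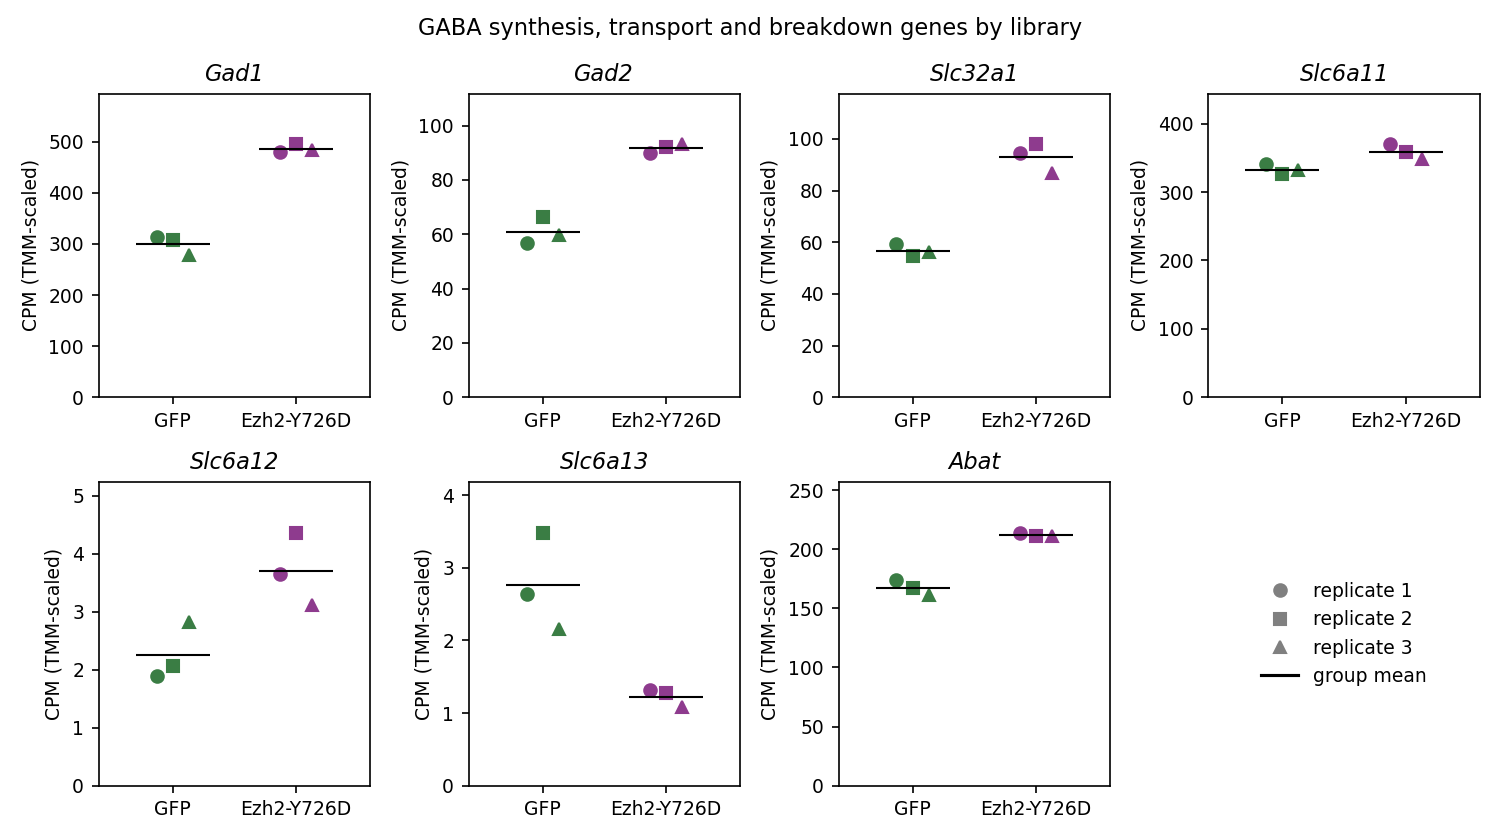
Level of each of the 7 GABA genes in CPM in each library, one panel per gene, with the GFP and Ezh2-Y726D libraries on the horizontal axis, a symbol for each replicate and a line for the group mean. The groups overlap in none of the panels, and only Slc6a13 was lower with Ezh2-Y726D.

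The genes for synthesis and vesicle loading rose together with Ezh2-Y726D. Gad1 (ENSMUSG00000070880, chr2:70553072-70602014), whose product supplies most GABA for the cell as a whole, gave 314, 308 and 279 CPM with GFP and 480.1, 496 and 484 CPM with Ezh2-Y726D. Every Ezh2-Y726D library was above every GFP library, and the means were 301 ± 18.6 and 487 ± 7.99 CPM (SD, n = 3 each). The log2 fold change was 0.69 (SE 0.043, adjusted P = 6.68e-13 in edgeR's quasi-likelihood test), a 1.61-fold rise. Gad2 (ENSMUSG00000026787, chr2:22622205-22693874), whose product is found mostly at nerve terminals, was at 56.6, 66.4 and 59.5 CPM with GFP and at 89.8, 92.1 and 93.2 CPM with Ezh2-Y726D. Its groups were likewise apart, with a log2 fold change of 0.61 (SE 0.053, adjusted P = 3.59e-10). Slc32a1 (ENSMUSG00000037771, chr2:158610767-158615748), the vesicular transporter shared by GABA and glycine neurons, was at 59.1, 54.7 and 56.4 CPM with GFP and at 94.5, 98.0 and 86.8 CPM with Ezh2-Y726D. It rose by a log2 fold change of 0.70 (SE 0.053, adjusted P = 3.47e-11), 1.62-fold. Of the exonic bases of Slc32a1, 24.9% overlap the antisense gene Gm14205, and the sources used here do not say whether counting used the strand. Gm14205 itself had at most 6 counts in any library.

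Gad1 was also compared with Gad2 and with Slc32a1 inside each library, where no scaling enters. Within a library, Gad1 had 4.64 to 5.55 times the counts of Gad2 in the GFP group and 5.20 to 5.38 times in the Ezh2-Y726D group, and the groups overlapped (difference in log2 ratio 0.10, exact two-sided permutation P = 0.4). Gad1 relative to Slc32a1 differed between the groups by a log2 ratio of -0.02 (exact permutation P = 0.9), again with overlap. With 3 libraries a group, this permutation test cannot give a P below 0.1, and it was run on 5 pairs of genes.

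The plasma membrane transporters did not move as a group. Slc6a13 was the only one of the 7 genes that fell, with 2.63, 3.48 and 2.16 CPM in GFP replicates 1 to 3 and 1.32, 1.27 and 1.08 CPM in Ezh2-Y726D replicates 1 to 3. The lowest GFP library was still above the highest Ezh2-Y726D library, and the means were 2.76 ± 0.672 and 1.22 ± 0.123 CPM (SD, n = 3 each). The log2 fold change was -1.17 (SE 0.23, adjusted P = 2.29e-04), a 2.24-fold lower level. These values rest on few reads, namely 75, 27 and 13 counts with GFP and 35, 26 and 32 counts with Ezh2-Y726D. The exact 95% Poisson interval, which covers counting error only, was 1.15 to 3.69 CPM in GFP replicate 3 and so overlapped those of all 3 Ezh2-Y726D libraries, of which the widest was 0.832 to 1.87 CPM. The intervals of the other GFP libraries, 2.07 to 3.30 and 2.30 to 5.07 CPM, did not.

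Its neighbor Slc6a12 went the other way at a similar low level. It was at 1.89, 2.06 and 2.82 CPM with GFP, from 54, 16 and 17 counts, and at 3.65, 4.36 and 3.12 CPM with Ezh2-Y726D, from 97, 89 and 92 counts. The groups did not overlap, and the means were 2.26 ± 0.493 and 3.71 ± 0.624 CPM (SD, n = 3 each). The log2 fold change was 0.81 (SE 0.20, adjusted P = 0.00257 in edgeR's test). Without GFP replicate 1, the deepest GFP library, it was 0.61 with an adjusted P of 0.123. With counts thinned to the shallowest library it was 0.53 with an adjusted P of 0.202. In both settings Slc6a12 lost its call but kept its direction. The genes for Gat2 and Bgt1 are close in sequence but share little of it exactly, as only 4 of the 2849 stretches of 50 bases in Slc6a13 transcripts and 4 of the 3179 in Slc6a12 transcripts occur in both genes.

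Slc6a11, which codes for Gat3, gave 340.5, 326 and 332 CPM with GFP and 370.1, 358 and 348 CPM with Ezh2-Y726D. The groups were apart by little, and the means were 333 ± 7.21 and 359 ± 11.1 CPM (SD, n = 3 each). Its log2 fold change of 0.11 (SE 0.040, adjusted P = 0.0472) passed the test narrowly, and it missed it in 10 of 16 alternative analyses, among them RLE size factors (adjusted P = 0.0564) and counts without the rRNA gene (adjusted P = 0.0514). Slc6a13 relative to Slc6a11 within a library was 0.417 times as high with Ezh2-Y726D, with the groups apart (log2 difference -1.26, exact permutation P = 0.1, the smallest this design allows, adjusted P = 0.167 over the 5 pairs).

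Abat (ENSMUSG00000057880, chr16:8513429-8621568), the enzyme that removes GABA, rose without reaching the fold change of a DEG. Its GFP libraries had 174, 167 and 161 CPM and its Ezh2-Y726D libraries 214, 211 and 211 CPM, with no overlap. The log2 fold change was 0.33 (SE 0.040, adjusted P = 1.45e-07), 1.26-fold. Within a library, Gad1 was at 1.81, 1.85 and 1.73 times the counts of Abat with GFP and at 2.24, 2.35 and 2.30 times with Ezh2-Y726D. All Ezh2-Y726D libraries had the higher ratio, by 1.28 times (exact permutation P = 0.1, adjusted P = 0.167).

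**Figure D2:**
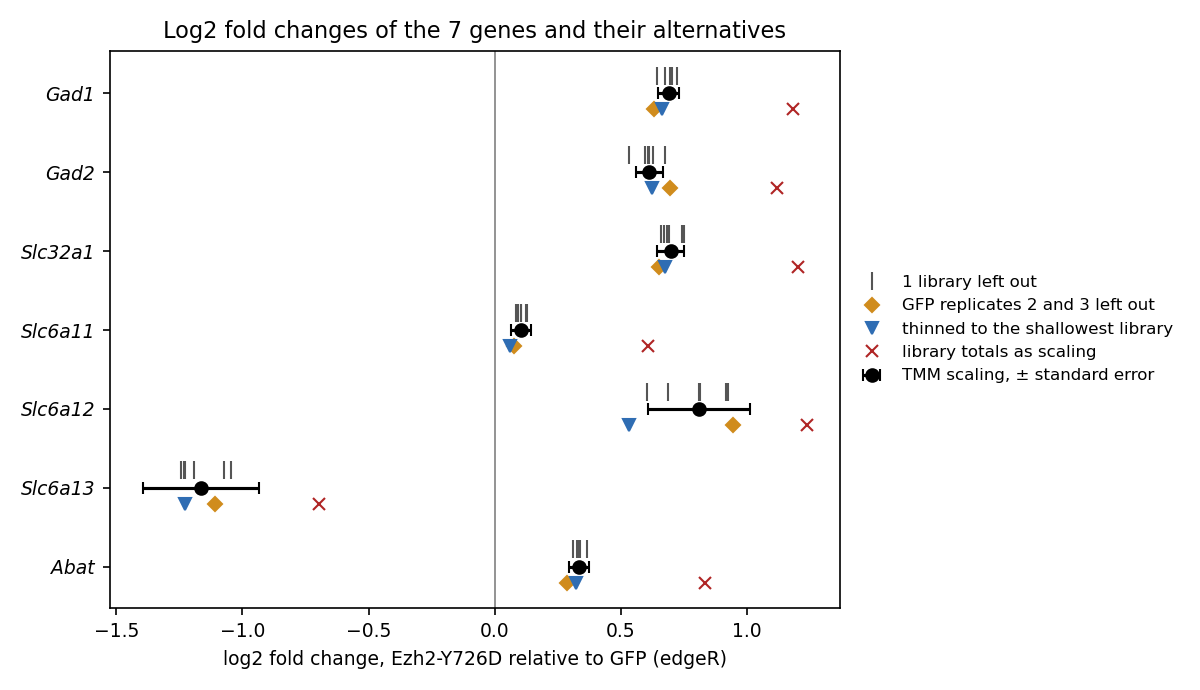
Log2 fold change of each GABA gene between Ezh2-Y726D and GFP libraries, with black points and bars for the estimate and its SE under TMM scaling, ticks without 1 library, diamonds without GFP replicates 2 and 3, triangles for thinned counts and crosses for scaling by library totals. Under TMM scaling Gad1, Gad2 and Slc32a1 lie together between 0.61 and 0.70, Abat and Slc6a11 lie lower, and Slc6a12 and Slc6a13, the genes with fewest reads and widest errors, lie at 0.81 and -1.17.

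**Figure D3:**
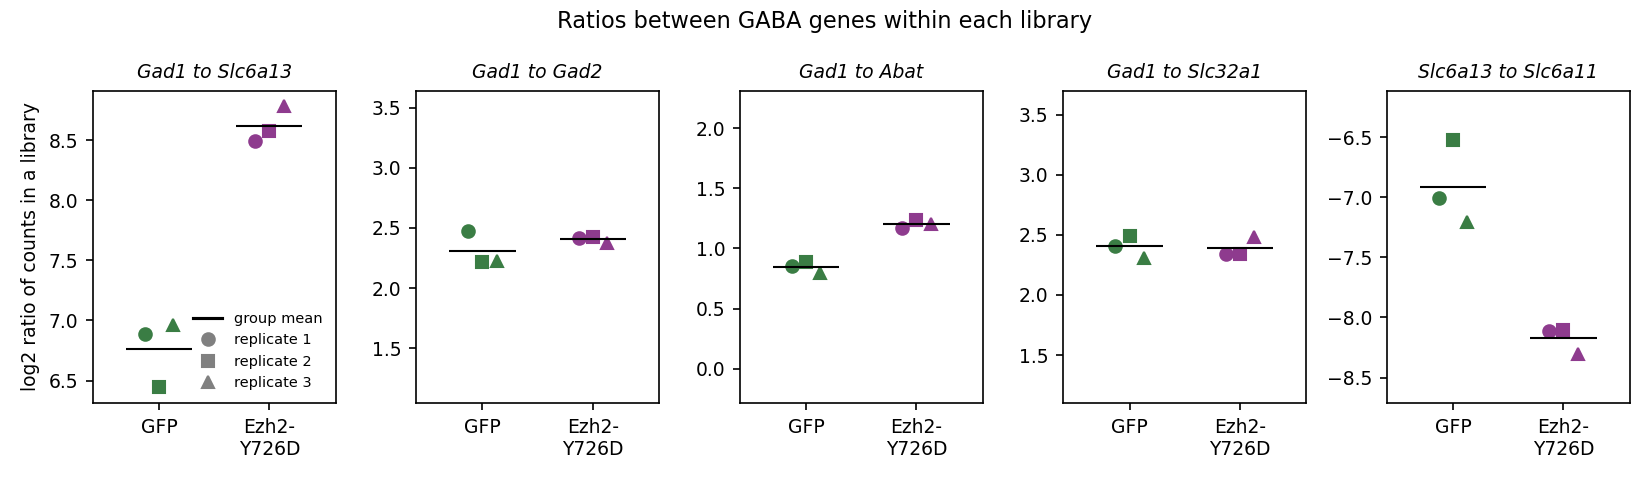
Log2 ratio of counts between pairs of GABA genes within each library, one panel per pair, with a symbol for each replicate and a line for the group mean, and axes of equal span. The ratios of Gad1 to Slc6a13 and to Abat were higher in every Ezh2-Y726D library, that of Slc6a13 to Slc6a11 was lower, and the Gad1 to Gad2 and Gad1 to Slc32a1 ratios overlapped between the groups.

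Of the 5 pairs compared, Gad1 and Slc6a13 had the largest difference. This pair joins a gene with a clear rise to the only gene that fell, and the pairs were chosen with earlier results known. The rank therefore adds nothing to the fold changes of the 2 genes. The ratio of their counts was 119, 88.6 and 129.5 in the GFP libraries and 365, 389 and 447 in the Ezh2-Y726D libraries, 3.61 times as high, with no overlap (exact permutation P = 0.1, adjusted P = 0.167). A ratio within a library does not depend on how the libraries were scaled to each other.

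Levels between genes were compared per kilobase of exon. In the GFP group, Slc6a11 had 65.9 CPM per kb, Gad1 39.3, Abat 21.6, Slc32a1 20.3, Gad2 10.4, Slc6a13 0.949 and Slc6a12 0.740. With Ezh2-Y726D these levels were 71.0, 63.7, 27.4, 33.3, 15.6, 0.422 and 1.22 CPM per kb. Slc6a11 was above Gad1 in all 6 libraries, by 1.09 to 1.80 times. Slc32a1 was above Abat in 3 of 6 libraries and Slc6a12 above Slc6a13 in 4 of 6, so the order of these neighbors was not fixed, and in both pairs the group means were in opposite order with GFP and with Ezh2-Y726D. The transporters Slc6a12 and Slc6a13 stood far below the rest, as Gad2 was at 10.97 to 16.7 times Slc6a12.

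Markers of other cell types moved with the groups. All 11 amacrine markers were higher with Ezh2-Y726D, at log2 fold changes of 0.34 to 0.74 with a median of 0.52, and their summed level was 901 to 961 CPM with GFP and 1314 to 1353 CPM with Ezh2-Y726D. Pax6 alone gave a mean of 355 CPM of this sum with GFP and 478 CPM with Ezh2-Y726D. Its log2 fold change of 0.43 was below the list median. Relative to this sum, Gad1 was 1.14 times and Slc32a1 1.15 times as high with Ezh2-Y726D, with the groups apart, whereas Gad2 overlapped at 1.06 times. Relative to the same sum, Abat was at 0.888 times and Slc6a11 at 0.754 times. Of the RGC markers, 2 of 12 were higher and 0 lower in edgeR's test, at sums of 536 to 560 and 517 to 565 CPM. At an unadjusted P under 0.05, 2 were higher and 3 lower, and in DESeq2 1 was higher and 0 lower. Relative to the RGC sum, Gad1 was 1.64 times as high. Starburst amacrine and horizontal cell markers, which mark other cells that use GABA, had 0 calls in edgeR's test and in DESeq2 among the 3 and 4 tested, with 1 and 0 of them at an unadjusted P under 0.05. Neither list can be read as unmoved. In the horizontal cell list, Onecut1 had 4 to 18 counts per library, and Lhx1, with 3 to 10, was not tested. Sept4 alone, at 90.7 to 99.5 CPM, gave most of that list's sum of 108 to 117 CPM. In the starburst list of 6 genes, the cholinergic genes had few counts. Chat (0.351, 0.387 and 0 CPM with GFP, and 0.714, 0.539 and 0.407 CPM with Ezh2-Y726D) and Slc18a3 (0.210, 0.129 and 0 CPM, and 0.489, 0.392 and 0.474 CPM) did not pass the filter and were not tested, with every Ezh2-Y726D library above every GFP library, and Slc5a7 had a log2 fold change of 0.90 (adjusted P = 0.0948). Cone markers were 5 of 5 lower (median -0.64, sums of 351 to 366 and 222 to 235 CPM), bipolar markers 6 of 7 lower and 1 higher (median -0.40, sums of 1014 to 1043 and 824 to 835 CPM), and rod markers 2 of 6 higher (median 0.07, sums of 5527 to 5692 and 6062 to 6253 CPM). The part of amacrine RNA in the rise of Gad1, Gad2 and Slc32a1 was not tested.

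Slc6a13 was set beside the RGC list and the lists of border, vessel, immune and glial cells. The study reports broad expression of Slc6a13 in RGCs, and lower Slc6a13 mRNA with Ezh2-Y726D. Relative to the RGC marker sum, Slc6a13 was at 0.451 times with Ezh2-Y726D, with the groups apart. Of the fibroblast and leptomeningeal markers, 6 of the 7 tested were lower, with a median log2 fold change of -0.86, and the summed level was 115 to 136 CPM with GFP and 80.9 to 89.6 CPM with Ezh2-Y726D. Col3a1, a fibrillar collagen, fell by 1.03 on the log2 scale (adjusted P = 3.04e-11). Of the pericyte and smooth muscle markers, 6 of 8 were lower (sums of 234 to 254 and 183 to 197 CPM), and of the endothelial markers 2 of 7, of which DESeq2 called 4 and 1. Retinal pigment epithelium markers had 0 calls among the 5 tested in edgeR and in DESeq2, with 1 at an unadjusted P under 0.05, at sums of 7.26 to 8.46 and 7.22 to 7.45 CPM. All 6 activated phagocyte markers tested were lower, with a median log2 fold change of -2.07 and sums of 684 to 778 CPM with GFP and 158 to 183 CPM with Ezh2-Y726D. T cell markers were 4 of 4 lower (median -0.81), B cell markers 1 of 3 lower (median -0.70), and microglia markers 2 of 7 higher and 3 lower (median -0.14, sums of 400.1 to 450.2 and 316 to 371 CPM). DESeq2 called 4 T cell and 0 B cell markers lower, and 1 microglia marker higher and 3 lower. Müller glia markers, the main glia of the retina, had 4 of 9 higher and 2 lower at sums of 4518 to 4781 and 4728 to 4899 CPM. Of the astrocyte markers, 2 of the 3 tested were lower and 0 higher in edgeR, in DESeq2 and at an unadjusted P under 0.05 (median -0.29, sums of 288 to 327 and 240.2 to 285 CPM). These were Gfap, which fell by 0.29 on the log2 scale (adjusted P = 1.58e-04), and S100b, which fell by 0.62 (adjusted P = 0.00198). Relative to the Müller glia sum, Slc6a13 was at 0.428 times and Slc6a11 overlapped between the groups at 1.04 times. None of the listed markers was at 0 in all libraries, and the part of any of these cells in the change of Slc6a13 was not tested.

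**Figure D4:**
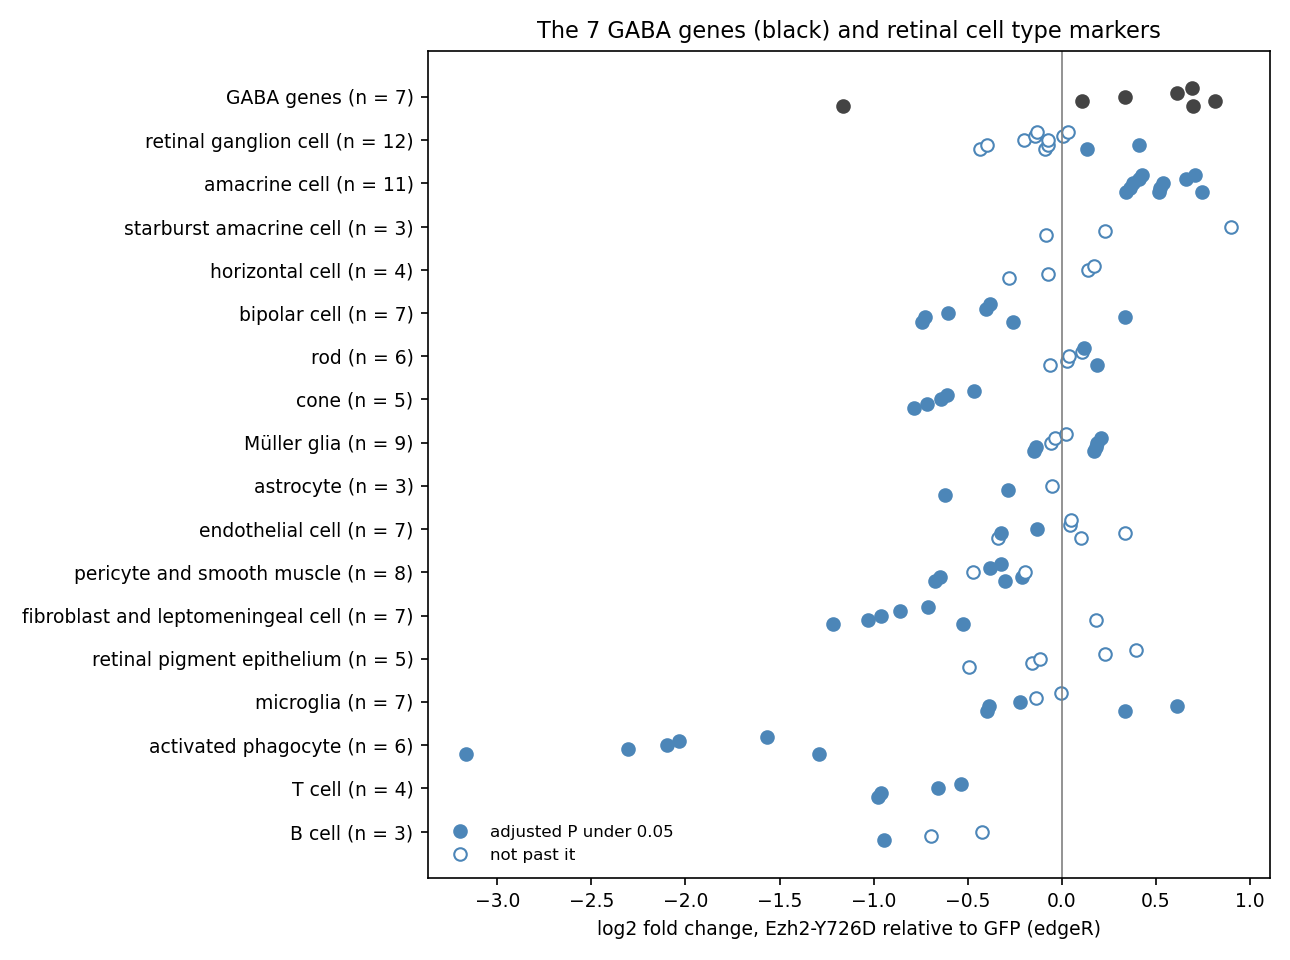
Log2 fold changes between Ezh2-Y726D and GFP libraries for the 7 GABA genes in black and the markers of each cell type in blue, one point per gene tested, filled where the adjusted P was under 0.05. All amacrine markers lie above 0 and all tested activated phagocyte markers below it, and RGC and Müller glia markers lie around 0.

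The other genes of GABA metabolism and transport were counted from 6 lists. Of the 52 listed genes found in the table, 45 were tested, of which 21 were higher and 6 lower, with a median log2 fold change of 0.09. DEGs were 8 higher and 1 lower. As a reference for these and the list counts below, edgeR's test called 13.9% of its 18138 genes up and 13.6% down. For DEGs the matching shares were 2.52% up and 5.5% down. No pathway or marker list was tested against these shares. The supply of glutamate and glutamine, from which GABA is made, had 4 of 12 genes higher and 1 lower in edgeR's test. DESeq2 called 3 higher and 2 lower, and 4 were higher and 3 lower at an unadjusted P under 0.05. Among them Slc1a1, the neuronal glutamate transporter, rose from 43.3 ± 3.48 to 72.2 ± 2.97 CPM (log2 fold change 0.72, adjusted P = 6.51e-11), and Gls2, a glutaminase, rose from 3.50 ± 0.897 to 5.87 ± 0.203 CPM (0.79, adjusted P = 2.03e-04). Slc38a5, a glutamine transporter, had the largest log2 fold change of the list, 1.14 (adjusted P = 0.0220), on only 2 to 32 counts per library. Slc1a3, the glial glutamate transporter, fell by 0.14 on the log2 scale (adjusted P = 0.00802).

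Genes of pyridoxal phosphate, the cofactor of both decarboxylases and of the transaminase, were all 3 higher, most of all Pdxp, a phosphatase of the cofactor (0.44, adjusted P = 9.99e-06). Of 8 tested genes for the later steps of breakdown and other routes to GABA, 2 were higher and 1 lower. Aldh5a1, which acts after Abat, rose by 0.24 on the log2 scale (adjusted P = 0.00218), whereas Odc1, which starts the route from ornithine through putrescine, fell by 0.18 (adjusted P = 0.00413). Of the GABA-B receptor and chloride cotransporter genes, 5 of 8 were higher and 0 lower in edgeR's test, in DESeq2 and at an unadjusted P under 0.05. The largest rise was that of Kctd8, an auxiliary subunit of the receptor, from 19.8 ± 2.06 to 32.5 ± 0.438 CPM (0.69, adjusted P = 5.28e-09).

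Among other Slc6 transporters, 5 of the 9 tested were higher and 3 lower, of which DESeq2 called 5 and 1. Both glycine transporters rose, Slc6a9 from 171 ± 16.7 to 290 ± 18.2 CPM (0.74, adjusted P = 1.01e-11) and Slc6a5 from 13.2 ± 1.5 to 22.5 ± 1.03 CPM (0.81, adjusted P = 1.21e-08). Slc6a9 is also one of the amacrine markers. Slc6a7, the proline transporter, had the largest rise (0.85, adjusted P = 3.65e-07). Slc6a2, the noradrenaline transporter, fell by 0.84 on the log2 scale (adjusted P = 0.0179) with overlapping groups on 6 to 56 counts per library. Of 5 other vesicular transporters tested, 2 were higher and 1 lower in edgeR's test. DESeq2 called 1 higher and 1 lower, and 2 were higher and 2 lower at an unadjusted P under 0.05. Slc18a2, which loads monoamines, rose from 3.29 ± 0.609 to 7.27 ± 0.377 CPM (1.12, adjusted P = 4.39e-07), and Slc17a7, which loads glutamate, fell by 0.27 (adjusted P = 1.96e-05).

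**Figure D5:**
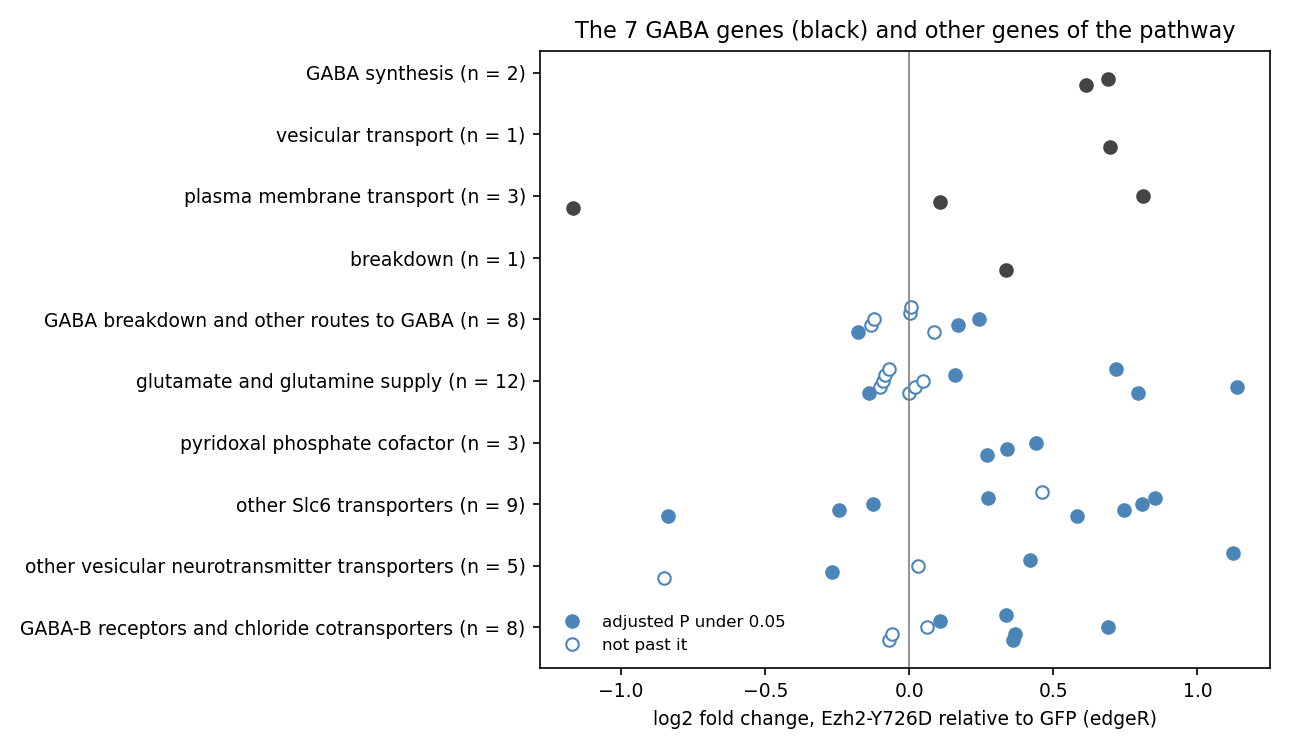
Log2 fold changes between Ezh2-Y726D and GFP libraries for the 7 GABA genes in black and the other genes of GABA metabolism and transport in blue, by list, one point per gene tested, filled where the adjusted P was under 0.05. The 3 cofactor genes lie above 0, and the other Slc6 transporters spread from -0.84 to 0.85.

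By Pearson's r of log2 CPM over the 6 libraries, the genes most like Slc6a13 were Gm12250 (0.996), Rab31 (0.994) and Zfp691 (0.994), and those most like Gad1 were Tcaf1 (0.9998), Tenm4 (0.9996) and Tshz1 (0.9994). These values are descriptions over the same 6 libraries, in which the difference between the groups sets most of each r.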

How the data were processed

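The data were 1 table of reads per gene from 6 RNA-Seq libraries, 3 GFP and 3 Ezh2-Y726D. The authors deposited whole-number counts per gene without normalization. The submitters' processing notes name STAR 2.7.0d and GRCm38. The counting tool, the annotation and the strand setting are not given in the sources used here, and the kit was for stranded total RNA. Symbols were found for 32325 of 32371 Ensembl identifiers. Coordinates, exonic lengths and overlaps are from GENCODE vM21 on GRCm38, and promoters from RefSeq on GRCm38.p6.

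All genes were fitted with edgeR 4.0.16 in R 4.3.3 (TMM factors of 0.647 to 1.31, filterByExpr with its defaults of 10 counts and a total of 15, quasi-likelihood test of Ezh2-Y726D against GFP, Benjamini-Hochberg adjustment over 18138 genes). All 7 genes described passed this filter. DEGs passed an adjusted P of 0.05 with changes over 1.5-fold, the thresholds of the study. SE is the size of the log2 fold change over the root of the F statistic. Values are TMM-scaled CPM, shown as mean ± SD. Ratios within a library had 0.5 added to both counts and were compared by exact two-sided permutation tests. As replicates may not be separate mice, P values measure only the spread between these libraries. Every pair of libraries differed beyond counting noise. On simulated counts for this comparison, 85.5% of 200 genes changed by a log2 fold change of 1 were called, with 11 calls among the other genes of 18138. Alternatives were RLE and library-total scaling, leaving out the rRNA gene, DESeq2 1.42.0, other filters, thinning to the shallowest library, the replicate number as a block and leaving out libraries.

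The genes, the lists of other pathway genes and markers, and the tests were chosen with earlier results of these data known. Named pathway genes are, in each list, the called genes with the largest rise and fall, and every DEG. The 3 genes most like Slc6a13 and Gad1 were taken by Pearson's r. Markers named singly were chosen after their values were seen. One item of the lists is not reported here.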

Additional observations from a re-analysis of the deposited data

How the results depend on the processing

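The counts of 6 higher, 1 lower and 5 DEGs among the 7 genes were the same with DESeq2, without a filter, with at least 10 counts in every library and with the replicate number as a block. With group means taken out, GFP and Ezh2-Y726D libraries of the same replicate number had correlations of 0.07, 0.03 and 0.02. Those of different numbers had -0.050 to 0.015, so the same-number values were the highest, though small. The block moved the calls over all genes from 4988 to 5222 and the DEGs from 1455 to 1403. With scaling by library totals, which include the rRNA gene, 0 of the 7 genes were higher, 0 lower and 0 DEGs, with 65 calls over all genes. Over all genes, the log2 fold change then had a median of 0.49, and relative to it those of Gad1, Gad2, Slc32a1, Slc6a11, Slc6a12, Slc6a13 and Abat were 0.69, 0.63, 0.71, 0.11, 0.75, -1.19 and 0.34. Over all genes, 68.6% of DEGs were lower, against 29.2% with library totals. With a fold change over 2, the only DEG was Slc6a13. Leaving out each library in turn gave 5 to 6 higher genes, 1 to 1 lower and 3 to 5 DEGs, with 3 DEGs without GFP replicate 1, where Gad2 fell to 0.53 and Slc6a12 lost its call. Without it, Slc6a13 had a log2 fold change of -1.24, the lower end of the range of -1.24 to -1.04 that all such fits gave. Thinning gave 4 higher genes and 4 DEGs, as Slc6a12 (0.53, adjusted P = 0.202) and Slc6a11 (0.06, adjusted P = 0.404) lost their calls. Without GFP replicates 2 and 3 together, Gad1 was at 0.63, Slc6a13 at -1.11 and Slc6a11 at 0.08. This step was added after the data were seen, and the lone GFP library in it is assumed to vary like the others. In that setting the difference in the Gad1 to Gad2 ratio turned from 0.10 to -0.063, and that of Gad1 to Slc32a1 ran from -0.064 to 0.030 over the libraries left out. The cause of these changes was not tested. Slc6a12 and Slc6a13 had 13 to 97 counts per library, and Slc6a13 kept its call when thinned (-1.23, adjusted P = 0.00948).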
